A study of Mus musculus with 5 samples.

Results

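The common dendritic cell progenitor (CDP) was set against the monocyte-dendritic cell progenitor (MDP) across genes, with 1 expression array for each population. The members were chosen by level alone: a gene was kept where the higher of its CDP and MDP values was at or above 6.27 on the log2 scale, the median of all gene values over the 5 arrays of the series. This kept 10416 of 19938 named genes (52.2%). The nearest genes inside were 6330403K07Rik (6.2687) and Cdc42ep2 (6.2692), and the nearest outside Rnf113a1 (6.2678) and Myo15b (6.2678). All cells were untreated cells of wild-type C57Bl/6 mouse bone marrow, and all were lineage-negative and positive for CD115. CDP were sorted as CD117-intermediate, CD135-positive cells and MDP as CD117-positive, CD135-positive cells. The other arrays of the series are the common monocyte progenitor (cMoP; CD117-positive, CD135-negative), Ly6C+ TremL4- classical monocytes and Ly6C- TremL4+ nonclassical monocytes. The submitters give the sorts as over 95% pure, and neither the number of mice nor any pooling is given in the sources used here.

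MDP are marrow cells that can give rise to monocytes and to dendritic cells, and CDP are the later stage whose progeny are dendritic cells. Dendritic cells take up antigen and show it to T cells. They comprise conventional cells of type 1, which cross-present antigen from dead cells, conventional cells of type 2, which prime helper T cells, and plasmacytoid cells, which make type I interferon after sensing nucleic acids. Flt3, the product of which is CD135, is the receptor for the main growth factor of this lineage, and Kit, which encodes CD117, is the stem cell factor receptor that early progenitors lose as they mature.

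Differences are given as CDP minus MDP in log2 units, and levels are the deposited log2 values. With 1 array a side there is no spread between replicates, no test and no p-value; precision is limited by the number of arrays. The values were taken as base 2 logarithms, which their range allows but no source states, and with another base every fold would change. A gene was called higher or lower in CDP where its difference was at least 1 log2 unit, which is 2-fold. By this rule 120 members (1.15%) were higher and 110 (1.06%) lower, or 2.21% in either direction. With arrays centred on their medians the split was 100 higher and 137 lower. The shares of list members called below are to be read against these. The median difference of all members was -0.01, their median absolute difference was 0.19, and the central 90% of members lay between -0.63 and 0.53. In 899 members (8.63%) the deposited values of CDP and MDP were identical to the last digit. For 42 of the higher and 38 of the lower genes the smaller of the 2 values lay under the floor, and the fold of such a gene is given as at least the stated size, with the smaller value set to the floor. Nearest to the threshold on the higher side, Adap2 was just inside at 1.0005 and Siglecg just outside at 0.9986, and on the lower side Bccip was just inside at -1.0012 and Psmg1 just outside at -0.9995.

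The gates were mirrored in the measured genes. Kit was at 8.16 in CDP and 10.11 in MDP, Flt3 at 10.74 in CDP and 10.75 in MDP, and Csf1r, which encodes CD115, at 10.51 in CDP and 10.11 in MDP. Because these proteins defined the sorts, their values check the labels and are not findings.

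**Figure D1:**
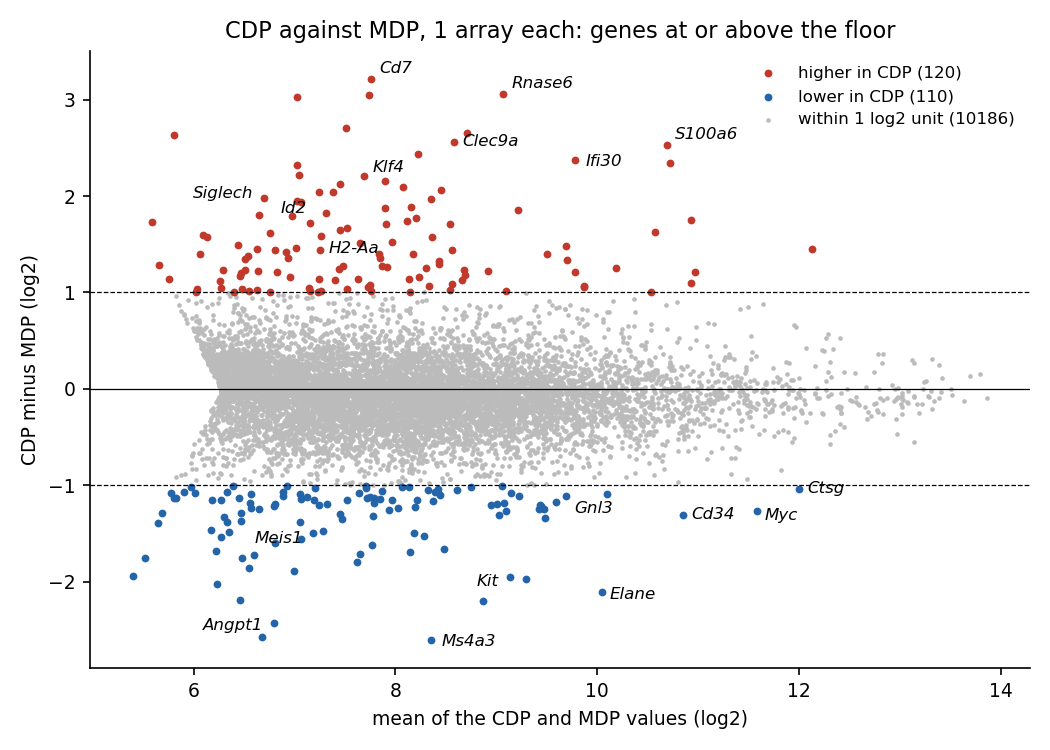
CDP minus MDP (vertical axis, log2 units) against the mean of the CDP and MDP values (horizontal axis, log2) for the 10416 members, 1 point a gene, with dashed lines at 1 log2 unit on either side of 0. The 120 genes higher in CDP are red and the 110 lower genes blue; Cd7 at 3.21 is the highest point and Ms4a3 at -2.60 the lowest.

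Dendritic cell genes were higher in CDP across all 3 lineages, but only some markers of each had moved. The plasmacytoid list had 8 of 20 genes past the floor higher and 1, Dntt, lower (median difference 0.88). Of the 8, Siglech, Ly6d and Smim5 passed the floor through CDP alone. The median was 0.85 over genes with both values at or above the floor. Of 17 type 2 genes measured 8 passed the floor and 4 were higher. Their median of 1.27 was 0.77 without Cd7, which passed the floor through CDP alone, and 0.43 over all 17. Of the 7 type 1 genes past the floor 2 were higher (median 0.42) and of the 9 genes shared by conventional cells 2 (median 0.34), with 0 lower in these 3 lists. Itgax, a higher gene of the shared list, also passed the floor through CDP alone. Some genes stand in more than 1 list: Klf4 counts in the type 2 list and Id2 in the shared list, and both are transcription factors described further on. These counts were read on bulk samples, in which fewer cells expressing a gene and less RNA per cell cannot be told apart.

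Clec9a, a receptor by which type 1 cells take up material of dead cells, was at 9.86 in CDP and 7.30 in MDP. The remaining arrays were far lower, at 5.11 in cMoP, 5.74 in classical and 4.77 in nonclassical monocytes, all under the floor. Irf8, the transcription factor required for type 1 cells, was at 11.07 in CDP and already at 10.54 in MDP (difference 0.53). Batf3, its partner in type 1 cells, differed by 0.32, and Wdfy4, which type 1 cells need for cross-presentation, by 0.33. Naaa, a lysosomal amidase and the other type 1 gene called, was at 8.22 in CDP and 6.40 in MDP but highest in classical monocytes, at 10.76. Xcr1, the chemokine receptor that marks the mature type 1 cell, was under the floor in CDP (4.73) and in MDP (4.36). The type 1 markers thus ranged from a 5.91-fold difference in Clec9a to no signal above the floor in Xcr1.

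Among the plasmacytoid genes, Siglech, a surface lectin of these cells, was at 7.68 in CDP and 5.71 in MDP, and under the floor on the 3 other arrays. Cd300c, an activating receptor, was at 8.98 in CDP and 6.82 in MDP, with 7.33 as the highest of the others. Ly6d, a surface protein that marks lymphoid and plasmacytoid precursors, was at 7.19 in CDP and 5.69 in MDP (at least 1.89-fold). Cox6a2, a subunit of cytochrome c oxidase found in plasmacytoid cells, was at 9.22 in CDP and 8.10 in MDP. Atp1b1, a sodium pump subunit, was at 7.67 in CDP and 6.65 in MDP, a difference of 1.02 that became 0.97 when the arrays were centred. Siglech, Cd300c, Ly6d and Cox6a2, but not Atp1b1, were at least 1 log2 unit above every other array in CDP. The remaining higher genes of this list, Tlr9, Cybb and Smim5, were all higher in classical monocytes than in CDP. Tcf4, the transcription factor that specifies plasmacytoid cells, was at 9.54 in CDP and 9.09 in MDP and so stayed within the threshold (0.45). Tlr7, the sensor of single-stranded RNA, differed by -0.42, while Tlr9, the sensor of unmethylated DNA, differed by 1.35.

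The type 2 list holds Cd7, a surface glycoprotein better known from lymphoid cells, which had the largest difference of all members. It was at 9.37 in CDP and 6.15 in MDP, and between 5.95 and 6.24 on the other arrays, so CDP was the only array where it passed the floor. Cd209a, a lectin of type 2 cells and related to human DC-SIGN, was at 8.40 in CDP and 6.35 in MDP, a 4.13-fold difference, with 6.85 as the highest other value. Kmo, an enzyme of tryptophan breakdown, was at 9.09 in CDP and 7.32 in MDP. Sirpa, the receptor for the CD47 signal and a standard type 2 marker, differed by 0.77 and Notch2, a receptor needed by a type 2 subset, by 0.58. Zbtb46, a transcription factor of committed conventional cells, was under the floor in CDP (6.17) and in MDP (5.60).

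**Figure D2:**
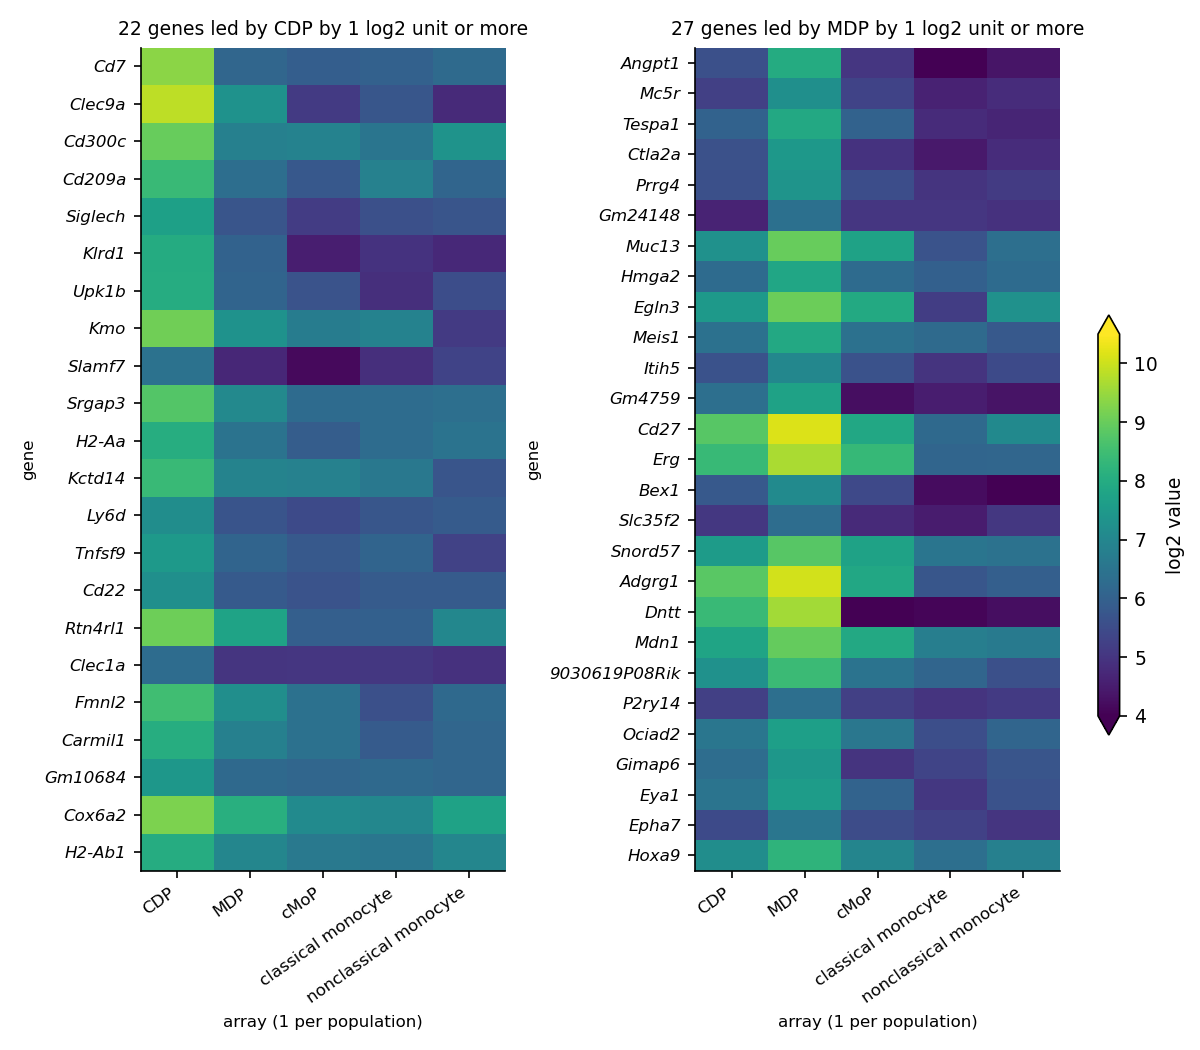
Deposited log2 values (colour) on the 5 arrays, 1 column an array and 1 row a gene. Left, the 22 genes called higher in CDP whose CDP value was at least 1 log2 unit above every other array, from Cd7 to H2-Ab1; right, the 27 genes called lower in CDP whose MDP value was at least 1 log2 unit above every other array, from Angpt1 to Hoxa9.

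CDP led every other array by at least 1 log2 unit in 22 of the 120 genes. Beside the lineage genes above these included Upk1b, a tetraspanin of urothelium, at 8.03 in CDP and 6.09 in MDP. Srgap3, a GTPase-activating protein for Rac, was at 8.76 in CDP and 7.05 in MDP, and both of its probe sets were higher (1.71 and 1.51). Klrd1, which encodes the natural killer receptor chain CD94, was at 8.0 in CDP and 6.05 in MDP and under 5 in the 3 other populations. Tnfsf9, the ligand of the T cell costimulator 4-1BB, was at 7.53 in CDP and 6.09 in MDP. Cd22, an inhibitory lectin of B cells, was at 7.23 in CDP and 5.84 in MDP. Fmnl2 and Carmil1, regulators of actin assembly, differed by 1.28 and 1.24. Srgap3, Fmnl2 and Carmil1 were named after their values were seen.

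Of the 20 dendritic cell transcription factor genes past the floor 4 were higher, 0 lower, and the median was 0.46. Id2, which blocks E proteins such as that of Tcf4, was at 8.01 in CDP and 6.29 in MDP, just above the floor. Klf4, required for some type 2 cells and for monocytes, was at 8.79 in CDP and 6.58 in MDP. Nfil3, needed for type 1 cells, was at 9.53 in CDP and 8.31 in MDP. Irf5, which acts downstream of toll-like receptors, differed by 1.01 (0.95 with centred arrays). Below the threshold stood Bcl11a (0.87), needed for plasmacytoid cells and lymphocytes, Bcl6 (0.84), a repressor required for type 1 cells, and Bach2 (0.67), a repressor of lymphoid progenitors. Spi1, which encodes PU.1, differed by 0.23 and Ikzf1, which encodes Ikaros, by -0.05. Zeb2 (-0.29) and Etv6 (-0.48), both with roles in dendritic cell development, were on the negative side. The factors that moved past the threshold were thus a minority. All 4 were higher in classical monocytes than in CDP: Id2 at 9.70, Klf4 at 9.47, Irf5 at 10.40 and, by little, Nfil3 at 9.56.

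Class II antigen presentation had 4 of 12 genes higher, 0 lower and a median of 0.57. H2-Aa, the alpha chain of the I-A molecule, was at 8.05 in CDP, 6.47 in MDP, 5.92 in cMoP, 6.30 in classical and 6.47 in nonclassical monocytes, a 2.99-fold difference between the progenitors. H2-Ab1, its beta chain, was at 8.04 in CDP and 7.0 in MDP (difference 1.04, 0.99 with centred arrays). Cd74, the invariant chain that guides class II molecules to the endosome, was at 7.97 in CDP and 6.53 in MDP. Ifi30, a thiol reductase that opens disulfide bonds of antigens in the lysosome, was at 10.97 in CDP and 8.59 in MDP. Both I-A chains were higher in CDP than on the other 4 arrays, whereas Cd74 peaked in nonclassical monocytes (9.79) and Ifi30 in classical monocytes (11.9). H2-Eb1, the beta chain of the I-E molecule, was at 6.81 in CDP and 6.62 in MDP. Ciita, the coactivator on which class II transcription depends, was at 6.37 in CDP and 5.79 in MDP, and thus near the floor. H2-DMa (0.41) and H2-Oa (0.54), which load peptide and restrain loading, stayed within the threshold, and H2-Ob was at -0.33. Class I presentation had 0 of 13 genes past the threshold in either direction and a median of -0.16, with Tapbp, the peptide loading factor tapasin, at 0.45 and Calr, a chaperone of the endoplasmic reticulum, at -0.93.

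Class II promoters are known for a Y box, the site of the trimeric factor NF-Y, which lies a short way upstream of the start. In the class II list 3 genes held the letters CTGATTGG on either strand in the 150 bases before their start, of 9 list genes with an entry in the RefSeq promoter table (assembly GRCm38.p6). All 3 are shown because they hold the same letters yet differ in response, with H2-Aa called higher and H2-Eb1 and H2-Oa not. Each is printed 5′ to 3′ on the gene's strand, ending at the base before the start, with the match in capitals. The match began 51 bases before the start in H2-Aa, 62 in H2-Eb1 and 46 in H2-Oa.
H2-Aa (chr17:34287824-34287973, minus strand): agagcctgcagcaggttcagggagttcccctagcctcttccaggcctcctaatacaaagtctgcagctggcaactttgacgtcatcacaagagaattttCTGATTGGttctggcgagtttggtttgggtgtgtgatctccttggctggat
H2-Eb1 (chr17:34305717-34305866, plus strand): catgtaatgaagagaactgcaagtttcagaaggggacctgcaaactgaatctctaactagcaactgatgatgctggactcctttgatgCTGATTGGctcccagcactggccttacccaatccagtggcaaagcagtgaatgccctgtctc
H2-Oa (chr17:34092229-34092378, plus strand): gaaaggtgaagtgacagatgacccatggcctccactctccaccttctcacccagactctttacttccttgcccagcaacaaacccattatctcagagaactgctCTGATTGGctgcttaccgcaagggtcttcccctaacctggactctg
Of all 32851 promoter entries 3.16% held these letters in the same window, and of the members with an entry 5.10% did. The match is a description of the letters and was not read as a bound site.

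Lymphoid-primed genes split. Of 14 past the floor 3 were higher, Cd7, Klrd1 and Ly6d, and 2 lower. All 3 higher genes passed the floor through CDP alone, with MDP at 6.15, 6.05 and 5.69. Both lower genes were above the floor in CDP and in MDP. The median of 0.19 turned to -0.12 over genes with both values at or above the floor. Dntt, which adds untemplated bases to rearranging antigen receptor genes, was at 8.41 in CDP and 9.61 in MDP, yet between 3.89 and 4.25 on the other arrays. Cd27, a costimulatory receptor of the TNF receptor superfamily, was at 8.82 in CDP and 10.15 in MDP. Il7r, the interleukin-7 receptor, differed by 0.39 and was under the floor in cMoP and in both monocyte populations. Satb1, a chromatin organizer of lymphoid cells, differed by -0.30, at 10.41 in CDP and 10.70 in MDP. The 2 lower genes were therefore still well above the floor in CDP.

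**Figure D3:**
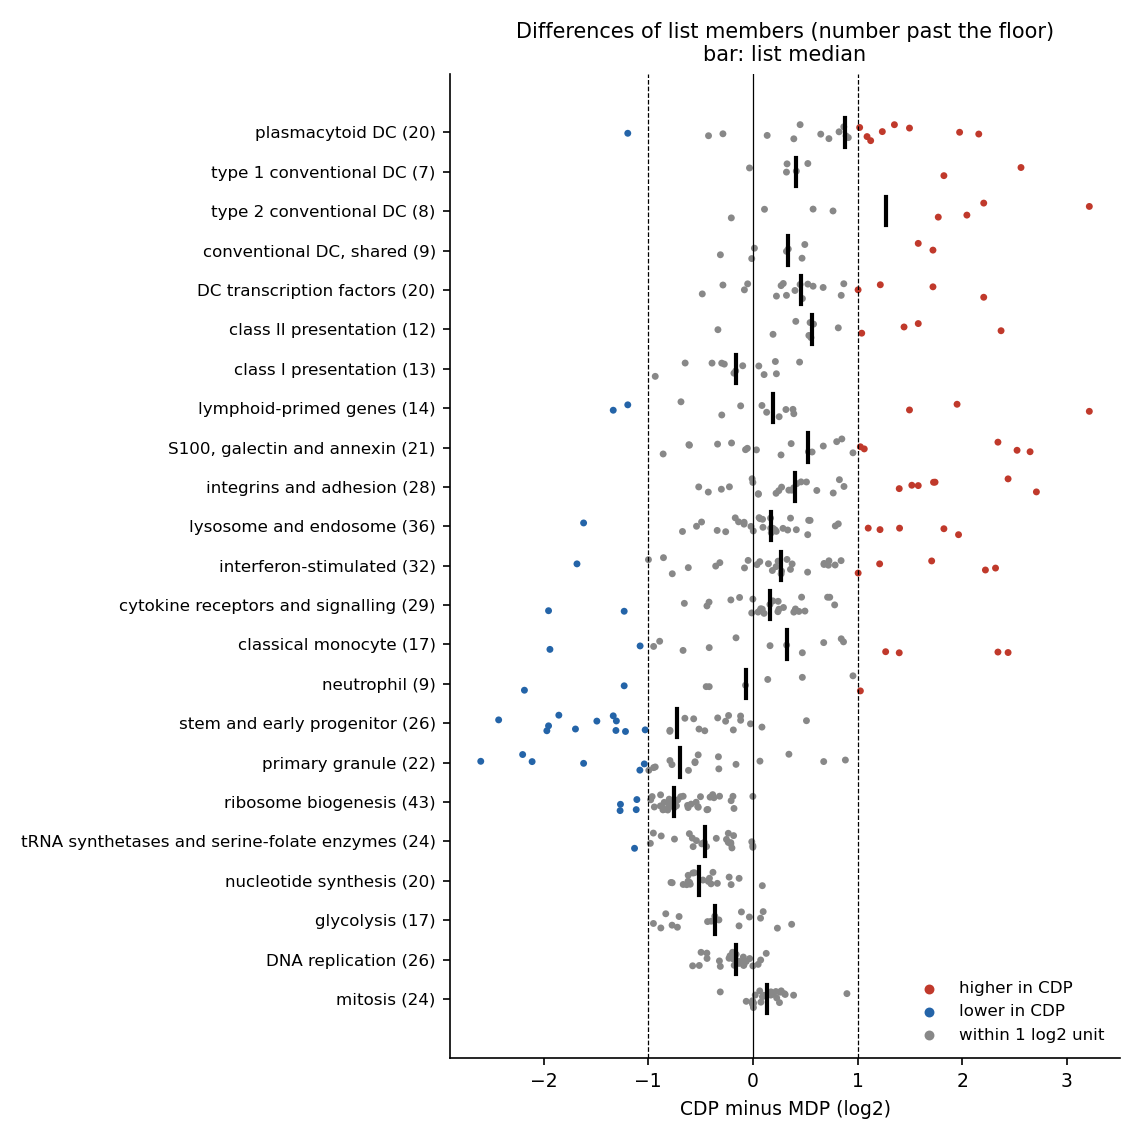
CDP minus MDP (horizontal axis, log2 units) for the members of 23 gene lists that passed the floor, 1 point a gene, with a black bar at each list's median and dashed lines at 1 log2 unit. The 4 dendritic lineage lists, the transcription factors and class II presentation have medians to the right of 0, with the type 2 list at 1.27 (0.77 without Cd7), and class I presentation is at -0.16, while the stem, granule and ribosome lists have medians to the left, with ribosome biogenesis at -0.75.

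Surface receptors of myeloid cells were called in both directions. Among C-type lectins 3 of 12 were higher (Clec9a, Cd209a and Klrd1) and 3 lower (Clec4e, Clec4d and Cd69), with a median of -0.14 that turned to 0.17 with no floor. Clec4e was at 4.43 in CDP and 6.37 in MDP, and Clec4d at 5.24 in CDP and 6.31 in MDP. Both passed the floor only just and through MDP (at least 1.07-fold and 1.03-fold). Klrd1 passed it through CDP alone. Cd69, an early activation antigen, was at 8.24 in CDP and 9.26 in MDP. Its difference of -1.02 moved within the threshold under quantile normalization and lowess correction, as far as -0.93. Among immunoglobulin-like and Siglec receptors 7 of 26 were higher and 2 lower (median 0.49). Lilra6 was at 8.54 in CDP and 5.51 in MDP (at least 4.84-fold) and highest in classical monocytes, at 11. Pirb, an inhibitory receptor for class I molecules, was at 9.09 in CDP and 7.21 in MDP. Lilrb4a, another inhibitory receptor, was at 7.56 in CDP and 5.94 in MDP. Fcgr3, which encodes an Fc receptor for IgG, was at 6.80 in CDP and 8.10 in MDP, and between 10.79 and 10.97 on the other arrays. Trem3, an activating receptor, was at 6.01 in CDP and 7.61 in MDP. Both lower receptors had their smallest value of the 5 arrays in CDP.

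Receptors for growth factors and for chemoattractants were counted separately. Of 29 cytokine receptor and signalling genes 0 were higher and 2 lower, Csf3r and the gated Kit, which is not a finding. Csf3r, the receptor for the granulocyte growth factor G-CSF, was at 7.41 in CDP and 8.64 in MDP, and higher on all other arrays. The receptor chains for GM-CSF lay within the threshold on the positive side, with Csf2ra at 0.73, Csf2rb2 at 0.78 and Csf2rb at 0.50. Among 20 receptors for chemokines and lipid mediators 3 were higher and 2 lower. Cx3cr1, the fractalkine receptor, was at 10.37 in CDP and 9.03 in MDP. Gpr183, an oxysterol receptor that guides dendritic cells in lymphoid tissue, was at 9.28 in CDP and 8.10 in MDP. Ptger4, a receptor for prostaglandin E2, was at 9.06 in CDP and 8.03 in MDP (difference 1.03, 0.97 with centred arrays). Cxcr2, the neutrophil chemokine receptor, was at 5.37 in CDP, under the floor, and at 7.55 in MDP. P2ry14, a receptor for UDP-glucose, was at 5.24 in CDP and 6.37 in MDP (at least 1.07-fold). Ccr2, which brings marrow cells into blood, differed by 0.87.

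Some genes of adhesion and of the lysosome were higher in CDP. Of 28 integrin and adhesion genes 7 were higher and 0 lower (median 0.40). Itgb2, the common chain of the leukocyte integrins, was at 8.99 in CDP and 7.25 in MDP, and Itgax, its partner chain CD11c, at 6.93 in CDP and 5.35 in MDP. Itgb7, which pairs with the alpha 4 chain for homing to gut, was at 8.72 in CDP and 7.20 in MDP. The members that moved also include L1cam, Fn1, Slamf7 and Tgfbi, of which Fn1 and Tgfbi encode matrix proteins. Of 21 S100, galectin and annexin genes 5 were higher and 0 lower (median 0.53). S100a4, a calcium-binding protein of motile cells, was at 11.89 in CDP and 9.55 in MDP, and Anxa2, a membrane-binding annexin, at 10.40 in CDP and 9.34 in MDP.

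Of 36 lysosome and endosome genes 5 were higher and 1 lower (median 0.17). Plbd1, a phospholipase-like protein, was at 9.33 in CDP and 7.36 in MDP. Ctsh, a cysteine protease, was at 10.20 in CDP and 8.80 in MDP. Grn, which encodes progranulin, was at 11.48 in CDP and 10.38 in MDP. Cd63, a tetraspanin of lysosomes and granules, was the lower member, at 6.96 in CDP and 8.58 in MDP. Lgmn (0.82) and Ctss (0.55), proteases that cut the invariant chain or antigens, stayed within the threshold. Of 32 interferon-stimulated genes 5 were higher and 1 lower (median 0.27). Ifi205 was at 8.18 in CDP and 5.86 in MDP, and Samd9l, an antiviral factor, at 8.16 in CDP and 5.93 in MDP. Rtp4, the lower member, was at 5.38 in CDP and 7.07 in MDP. Mx1, an antiviral GTPase, was at 0.84 and Xaf1 at -0.85, both within the threshold.

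Most genes higher in CDP had their highest level in a monocyte array. Of the 120 genes 54 were highest in classical monocytes, 36 in nonclassical monocytes and 30 in CDP, so 90 of them peaked in monocytes. A gene called higher in CDP cannot peak in MDP, and of the 8370 members that did not peak in MDP 50.4% peaked in a monocyte array. Rnase6, an antimicrobial ribonuclease, was at 10.60 in CDP, 7.54 in MDP, 7.83 in cMoP, 11.45 in classical and 11.99 in nonclassical monocytes, an 8.34-fold difference between the progenitors. Lgals3, which encodes galectin-3, was at 10.04 in CDP, 7.39 in MDP, 9.04 in cMoP, 11.84 in classical and 10.58 in nonclassical monocytes. L1cam, a cell adhesion molecule, was at 8.86 in CDP, 6.15 in MDP, 6.41 in cMoP, 8.53 in classical and 10.29 in nonclassical monocytes. In all 3 genes MDP was the lowest array and CDP stood near or below the monocytes. Classical monocytes exceeded CDP in 83 of the 120. The step from cMoP to classical monocyte uses neither the CDP nor the MDP array and could therefore be set beside this one. By the same rule 5.83% of members were higher and 4.24% lower in classical monocytes than in cMoP. Of the 120 genes higher in CDP, 88 (73.3%) were also higher in classical monocytes than in cMoP and 1, Atp1b1, was lower. Those 88 are 14.5% of the members higher in classical monocytes. Of the 110 genes lower in CDP, 63 (57.3%) were also lower in classical monocytes than in cMoP, which is 14.3% of the members lower there, and 4 were higher (Clec4d, Clec4e, Car2 and Rtp4). The median classical monocyte minus cMoP difference was 1.70 for genes higher in CDP, -1.20 for genes lower in CDP and -0.01 for all members.

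**Figure D4:**
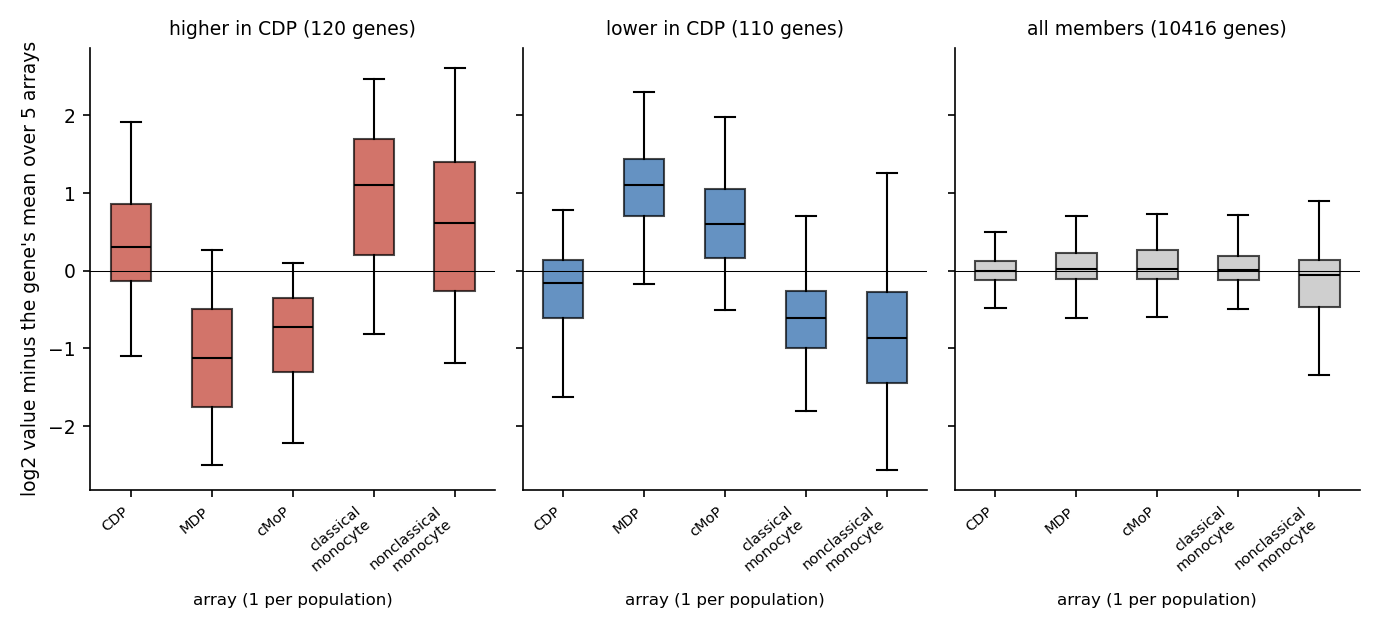
Log2 values on each array after subtracting the gene's mean over the 5 arrays, for the 120 genes higher in CDP, the 110 lower genes and all 10416 members; the line is the median, the box the interquartile range and the whiskers the 5th to 95th percentile. For genes higher in CDP the medians are 0.31 in CDP, -1.12 in MDP, -0.73 in cMoP, 1.10 in classical and 0.62 in nonclassical monocytes. CDP and MDP values chose the first 2 gene sets, so the difference between those 2 boxes is fixed by the rule.

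Markers of monocytes moved only in part with these genes. Over the 20 measured classical monocyte markers the mean log2 value was 8.21 in CDP and 7.92 in MDP, against 11.2 in classical monocytes, and 14 markers were at or above the floor in CDP and 17 in MDP. Of the 17 past the floor 4 (23.5%) were higher in CDP, namely Fn1, S100a4, Tgfbi and Ifitm6, and 2 were lower, Clec4e and Clec4d. Both lower genes passed the floor only just and through MDP, and were at least 1.07-fold and 1.03-fold lower. The list median was 0.32, and 0.57 with both values at or above the floor. In share higher and median this list was close to the shared conventional list (22.2%, 0.34) and the type 1 list (28.6%, 0.42). Hp, the gene of haptoglobin, was at 8.47 in CDP and 9.36 in MDP but at 12.2 in classical monocytes, and Mgst1, a microsomal glutathione transferase, at 7.62 in CDP and 8.57 in MDP but at 11.5 in classical monocytes. Fcgr3 and Csf3r were likewise high in classical monocytes and lower in CDP than in MDP. Over the 16 nonclassical markers the mean was 6.90 in CDP and 6.73 in MDP, against 10.8 in nonclassical monocytes, and Treml4 was under the floor in CDP (5.42) and MDP (5.02). The part of other cells in these differences was not tested.

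On the other side of the comparison, genes of stem and early progenitor cells were lower in CDP. Of 26 past the floor 11 were lower, among them the gated Kit, and 0 higher; the median was -0.72 (-0.42 with no floor). Angpt1, a secreted angiopoietin, was at 5.58 in CDP and 8.01 in MDP and under the floor on the 3 other arrays. Erg, a transcription factor needed by stem cells, was at 8.37 in CDP, 9.68 in MDP, 8.34 in cMoP, 6.13 in classical and 6.15 in nonclassical monocytes. Meis1 and Hoxa9, which encode partner homeodomain proteins, were at 6.43 and 7.19 in CDP and at 7.92 and 8.22 in MDP. Hoxa9 moved within the threshold under quantile normalization and lowess correction (-0.99 and -0.97). Cd34 was at 10.20 in CDP and 11.51 in MDP, and Muc13, a membrane mucin, at 7.29 in CDP and 8.99 in MDP. The adhesion receptor genes Adgrl4 and Adgrg1 were at 8.31 and 8.84 in CDP and at 10.28 and 10.05 in MDP. Gata2 (-0.02) and Runx1 (-0.12), factors of early blood cells, hardly differed, so the lower members were a part of the list.

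MDP led every other array by at least 1 log2 unit in 27 of the 110 genes. Hmga2, a chromatin protein of fetal and self-renewing stem cells, was at 6.28 in CDP and 7.84 in MDP, and no higher than 6.28 elsewhere. Tespa1, a regulator of T cell receptor signalling, was at 6.05 in CDP and 7.93 in MDP. Mc5r, a melanocortin receptor, was at 5.22 in CDP and 7.24 in MDP. Egln3, an oxygen-sensing prolyl hydroxylase, was at 7.52 in CDP and 9.04 in MDP. For the gene with the second lowest difference, Atxn1 at -2.57, the probe sets disagreed in size: the other probe set differed by -0.81.

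Primary granule genes were lower too, with 6 of 22 past the threshold, 0 on the higher side and a median of -0.69. Ms4a3, a tetraspan protein of myeloid progenitors, had the lowest difference of all members (-2.60), at 7.05 in CDP, 9.65 in MDP, 11.94 in cMoP, 7.41 in classical and 5.68 in nonclassical monocytes. Elane, the gene of neutrophil elastase, was at 8.99 in CDP and 11.10 in MDP, and at 12.55 in cMoP. Ctsg, the gene of cathepsin G, was at 11.49 in CDP and 12.52 in MDP (difference -1.04, -0.93 after quantile normalization). Prss57, another serine protease of these granules, was at 7.10 in CDP and 8.18 in MDP. Mpo, the gene of myeloperoxidase, was at 12.86 in CDP and 13.41 in MDP, and Prtn3, the gene of proteinase 3, at 11.66 in CDP and 12.21 in MDP. Mpo and Prtn3 were within the threshold, each at -0.55, and the 6 genes from Ms4a3 to Prtn3 were all higher in cMoP than in CDP and MDP. Lyz2, the lysozyme of myeloid cells, went the other way at 0.68, and so did Ly6a2 at 0.88.

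Elane and Prtn3 are neighbours on chromosome 10 and encode related proteases, but their differences were -2.11 and -0.55. Their promoters are shown because both hold the letters GAGGAAGT, of the kind bound by ETS factors such as PU.1, and AACGG, of the kind bound by Myb, in the same order and at much the same distance. Both motifs were searched on either strand, do not overlap here and are in capitals. GAGGAAGT began 85 bases before the start in Elane and 95 in Prtn3, and AACGG 50 and 55 bases before it.
Elane (chr10:79886162-79886311, plus strand): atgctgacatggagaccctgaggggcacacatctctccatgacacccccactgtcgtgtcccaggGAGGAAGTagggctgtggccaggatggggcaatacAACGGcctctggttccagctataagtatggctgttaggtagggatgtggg
Prtn3 (chr10:79879517-79879666, plus strand): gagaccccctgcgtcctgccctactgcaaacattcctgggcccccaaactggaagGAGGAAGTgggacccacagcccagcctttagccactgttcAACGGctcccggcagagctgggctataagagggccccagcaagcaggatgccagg
Within 150 bases before the start, 1.63% of all promoter entries held GAGGAAGT, 9.44% held AACGG and 0.158% held both. Of the 19 granule genes with an entry, Elane and Prtn3 alone held GAGGAAGT.

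Genes that build ribosomes were nearly all on the negative side. Of 43 ribosome biogenesis genes all passed the floor, 4 were lower and 0 higher, and the median was -0.75. Only 1, Bop1, was not below 0: it was at 7.32 in both populations, with equal deposited values. Myc, the transcription factor that drives this programme, was at 10.95 in CDP, 12.21 in MDP, 11.46 in cMoP, 8.66 in classical and 5.61 in nonclassical monocytes. It is counted in the list and among its 4 lower genes, although it is not itself an assembly gene. Wdr12, which acts in large subunit assembly, was at 8.46 in CDP and 9.73 in MDP, and its other probe set differed by -1.03. Gnl3, the nucleolar GTPase nucleostemin, was at 9.13 in CDP and 10.25 in MDP, and Dkc1, the pseudouridine synthase of H/ACA particles, at 8.67 in CDP and 9.78 in MDP. Just within the threshold lay Polr1b, a subunit of RNA polymerase I, at -0.98, Rcl1 at -0.96 and Wdr75 at -0.94. Few genes of the list were past the threshold, but their differences ran from -1.27, in Myc, to 0.00. Of all 10416 members 5365 were below 0, and their median was -0.01.

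Small nucleolar RNAs, which guide the modification of ribosomal RNA, followed the same direction, a group chosen after its values were seen. Of 42 past the floor 9 were lower, 0 higher and 39 below 0, with a median of -0.66. Of the C/D box RNAs, which guide methylation, 8 of 24 were lower, among them Snord33 at 6.54 in CDP and 8.02 in MDP and Snord22 at 9.01 in CDP and 10.18 in MDP. Of the H/ACA box RNAs, which guide pseudouridylation, 1 of 18 was lower, Snora44 at 7.31 in CDP and 8.56 in MDP. Many small nucleolar RNAs lie in introns of other genes, and whether a probe set reads the small RNA or its host transcript was not tested. Of 9 genes past the floor for protein subunits of RNase P and RNase MRP, 2 were lower, Rpp40 (-1.37) and Rpp38 (-1.20), and 0 higher. Their median was -0.14. Rpph1, the RNA of RNase P and not among those 9, was higher, at 10.81 in CDP and 9.56 in MDP. Of 13 pseudouridine synthase genes 3 were lower, Dkc1, Pus7 (-1.14) and Pus7l (-1.09), and the median was -0.13. Dkc1 is also counted in the ribosome biogenesis list. The RNase P, pseudouridine synthase and ribosomal protein families were likewise chosen after values were seen. Genes for the proteins of the ribosome itself leaned to the same side, with smaller differences. Of 55 cytosolic ribosomal protein genes 47 were below 0, 0 were past the threshold and the median was -0.11. Of 77 mitochondrial ones 64 were below 0, 0 were past the threshold and the median was -0.19. Among all 10416 members 5365 were below 0.

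Myc binds the E box, CACGTG. These letters, which read the same on both strands, were found in the 150 bases before the start in 1 of 37 ribosome biogenesis genes with a promoter entry, Imp4, and in 7.46% of all members with an entry. They were also found in 2 of 18 tRNA synthetase and serine-folate genes and in 3 of 18 nucleotide synthesis genes with an entry. No match says only that the letters are not in this window.

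**Figure D5:**
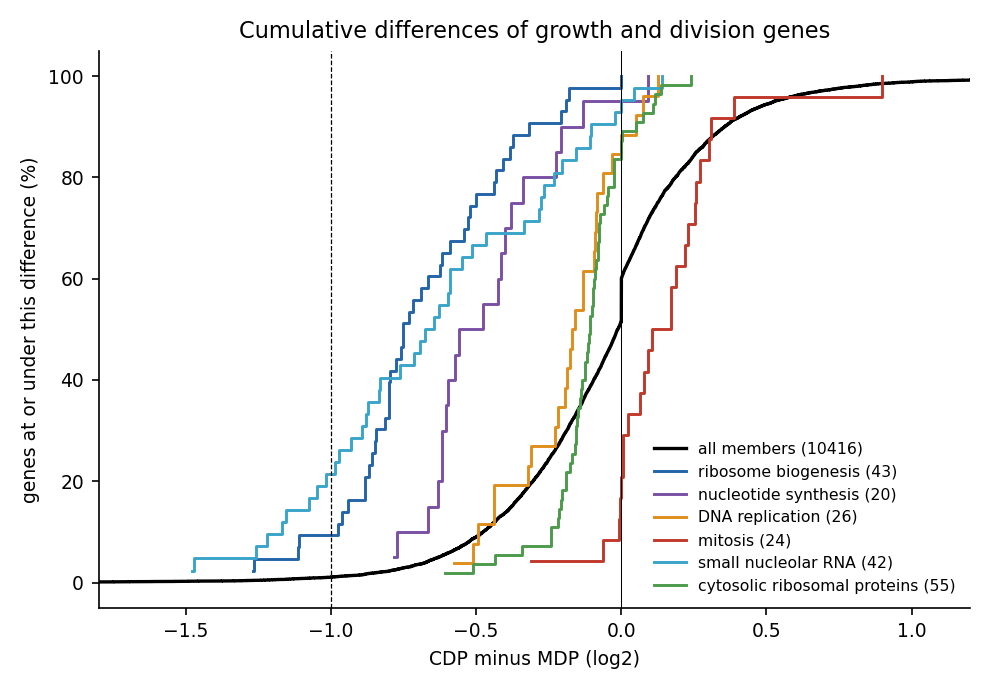
Cumulative share of genes (vertical axis, percent) at or under a given CDP minus MDP difference (horizontal axis, log2 units) for growth and division genes and for all 10416 members. Ribosome biogenesis and small nucleolar RNA curves lie far to the left (medians -0.75 and -0.66), nucleotide synthesis between (-0.52), and DNA replication (-0.17), ribosomal proteins (-0.11) and mitosis (0.14) near the curve of all members.

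Biosynthetic genes had smaller negative medians. Of 24 tRNA synthetase and serine-folate genes 1 was lower, Asns, which makes asparagine, at 5.88 in CDP and 7.01 in MDP (at least 1.67-fold), and the median was -0.45. Phgdh, the first enzyme of serine synthesis, was at -0.98, Mthfd1 at -0.95 and Shmt2, which feeds serine carbon into folate, at -0.88. Of 20 nucleotide synthesis genes 0 were past the threshold, but the median was -0.52, with Prps1 at -0.78 and Cad, the enzyme that starts pyrimidine synthesis, at -0.77. Of 17 glycolysis genes 0 were past it and the median was -0.36, with Ldhb at -0.95 and Aldoa at -0.83. Of 28 respiratory chain genes 0 were past it and the median was -0.14.

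Genes of cell division had medians nearer to 0. Of 26 DNA replication genes 0 were past the threshold (median -0.17), with Prim2, a primase subunit, at -0.58 as the lowest. Of 24 mitosis genes 0 were past it (median 0.14). Kif23, a motor protein of cytokinesis, was the highest at 0.90, with 11.24 in CDP and 10.34 in MDP, and Mki67, the proliferation antigen Ki-67, was at 11.67 in CDP and 11.37 in MDP. Mki67 was at 10.64 in cMoP, 11.26 in classical and 6.93 in nonclassical monocytes, so the nonclassical array alone stood low.

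Markers of other marrow cells were mostly under the floor. Of 15 B cell markers 4 were at or above the floor in CDP and 2 in MDP, and Cd79a, Ms4a1, Pax5 and Ebf1 were under it in both. All 4 B cell genes past the floor had a positive difference, and 1, Cd22 at 1.38, was called higher. Of 22 T and NK cell markers 9 were at or above it in CDP and 4 in MDP, with Cd3g at 4.25 in CDP and 4.10 in MDP and Ncr1 at 4.01 in CDP and 4.18 in MDP. Of the 9 past the floor 7 had a positive difference. In both lists a gene past the floor in CDP alone is positive by the filter itself. With both values at or above the floor the B cell median was 0.07 in place of 0.27. For T and NK cells it was 0.01 in place of 0.285. Klrd1 (1.95) and Thy1 (1.004), a surface glycoprotein of T cells, were called higher, and Nkg7, a granule membrane protein, lower (7.77 in CDP and 9.97 in MDP). Klrd1 and Thy1 were under the floor in MDP (6.05 and 5.90). Thy1 moved within the threshold with centred arrays, quantile normalization and lowess correction, down to 0.95. The part of such cells in the results on Cd22, Klrd1 and Nkg7 was not tested. Of 18 neutrophil markers 7 were at or above the floor in CDP and 7 in MDP. S100a8, a calcium-binding protein of neutrophils and monocytes, was at 7.14 in CDP and 6.12 in MDP (difference 1.03, 0.97 with centred arrays), against 12.6 in classical monocytes. Ltf, the lactoferrin gene of later neutrophils, was under the floor in CDP and MDP. Of 14 erythroid markers 1 was at or above the floor in CDP and 2 in MDP. Of the 19 markers of basophils, mast cells and eosinophils 4 were in CDP and 5 in MDP, of the 12 of megakaryocytes and platelets 5 in each, of the 9 of plasma cells 4 in CDP and 2 in MDP, and of the 21 of macrophages and stroma 4 in each.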

How the data were processed

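The series holds 1 array for each of 5 sorted populations of mouse marrow, and groups were taken from the sample titles. Per the labels' protocols, the RNAqueous-Micro kit served for extraction and the Nugen Encore Biotin kit for labelling. The deposited values are log2 expression values, 1 for each of 35556 probe sets and each array. The base was read from their range and is not stated, and the background correction, normalization and summarization are unknown here. The median gene value was 6.32 for CDP, 6.27 for MDP, 6.26 for cMoP, 6.23 for classical and 6.26 for nonclassical monocytes.

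Probe sets were named from the platform annotation, of which 21789 carry 1 symbol, 1621 several, and 12146 are not listed. The Entrez identifiers of 21698 matched a RefSeq table (GRCm38.p6) with 0 symbols changed. Of 19938 genes, 999 had several probe sets, of which the brightest by its 5-array mean stood for the gene. Differences, counts and medians were computed with Python 3.11.15, pandas 2.3.3 and statsmodels 0.14.6. On simulated data for CDP minus MDP over 19938 genes, all 200 changed genes were recovered and 0 others called. There the noise was capped below the threshold, and the shifts, put only into genes well above the floor, were large enough to reach it. The outcome was thus fixed by the settings, so it checks the code and not the accuracy of calls from single arrays.

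The members and the 42 gene lists were chosen with earlier results of these data known. Named genes are the 30 largest differences in each direction, sort genes, list members past 1 log2 unit, up to 4 further members of a list, and the 3 nearest to the threshold on each side. Genes outside this rule that the text names were chosen after their values were seen, or as list members with a textbook role. Alternatives changed the floor, scaling, probe set rule and threshold. One gene list is not reported here.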

Additional observations from a re-analysis of the deposited data

How the results depend on the processing

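The counts of 120 higher and 110 lower genes moved by less than 1.5 times with no floor (130 and 122), with arrays centred on their medians (100 and 137), with quantile normalization (127 and 101), with lowess correction (121 and 100), with probe sets averaged per gene (119 and 110) and with the probe set of lowest mean (120 and 118). Raising the floor to the upper quartile left 80 and 61 genes, and a threshold of 2 log2 units 21 and 7. Requiring both values at or above the floor, a choice made after seeing the data, gave 78 and 72. Which direction holds more genes thus depends on centring. No gene called under both a setting and the rule of the report changed direction. Among list medians of at least 0.19 in size, that of the lymphoid-primed list turned sign (-0.11 at the upper quartile, -0.12 with both values past the floor). So did those of the T and NK list (-0.12 at the upper quartile) and the erythroid list of 2 genes (0.84 with either floor, 0.37 with the probe set of lowest mean). Smaller medians turned too. The C-type lectin median turned to 0.25 at the upper quartile and to 0.17 with no floor. The neutrophil median turned from -0.07 to 0.01 with no floor, quantile normalization, lowess correction and the probe set of lowest mean. The sort gene median of -0.01 turned to 0.19 with no floor. Among the other medians that moved by over 1.5 times were those of the stem list (-1.12 at the upper quartile), the chemokine receptor and interferon lists (0.65 and 0.53 there), and the B cell list (0.07 with both values past the floor). Cycs turned from -0.43 to 0.64 with the probe set of lowest mean. The cause was not tested. No paired analysis was possible because each population has 1 array. Signal near the floor limits every fold given as a bound, and no value has a replicate check.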

Other observations

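Cholesterol synthesis and chromatin genes are not described above. Of 15 cholesterol synthesis genes past the floor 0 were past the threshold (median 0.18), with Fdps, which makes farnesyl diphosphate, at 9.48 in CDP and 8.77 in MDP and Fdft1, which makes squalene, at 8.07 in CDP and 7.46 in MDP. Of 28 histone and DNA modifying genes 0 were past it (median -0.07), with Hdac9, a histone deacetylase, at 0.69 and Dnmt3b, a DNA methyltransferase, at -0.67 as the widest. Of 17 toll-like and other pattern receptors past the floor 1 was higher, Tlr9, and 0 lower (median 0.43). Cd180, a receptor related to Tlr4, differed by 0.93, and Ddx58, which encodes the RNA sensor RIG-I, by -0.62. Of 27 immediate early genes 2 were higher, Klf4 and Klf6, and 0 lower (median 0.15), with Fos at 0.84. Of 19 genes of the NF-kB pathway and TNF superfamily 1 was higher, Tnfsf9, and 1 lower, Cd27 (median 0.13).

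Probe sets without a single gene symbol leaned to the lower side. Of 6301 such probe sets past the floor 174 were higher and 338 lower in CDP, with a median of -0.05. Among microRNA precursors 81 of 300 were past the floor, 0 of them past the threshold, and 14 had a negative difference (median 0.26); this family was chosen after its values were seen.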
